A study of Mus musculus with 8 samples.

Results

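Microglia of PRMT1Cx3cr1-KO mice were compared with microglia of PRMT1FL mice on a normal diet, gene by gene. The members were all genes with a mean scaled count of at least 10 over the 5 normal-diet libraries, 11086 of the 25239 genes in the table. These 5 libraries are part of a series of 8 bulk RNA-sequencing libraries of microglia sorted from mouse brain with CD45 and CD11b. A scaled count is a number of reads that the authors had scaled so that every library of a table has the same total.

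The 3 PRMT1FL libraries came from C57BL/6 mice with loxP-flanked Prmt1 alleles and no Cre. The 2 PRMT1Cx3cr1-KO libraries came from mice with the same floxed alleles and a tamoxifen-inducible Cre-ERT2 under Cx3cr1, a gene of microglia and of other mononuclear phagocytes. Both groups carry the time label 11 weeks, and the labels give an age of 4 to 6 weeks for all mice of the series without tying it to a normal-diet time point. Per the study's methods tamoxifen was injected to switch on Cre, and the CPZ experiment included injected PRMT1FL mice, while whether the normal-diet PRMT1FL mice were injected is not given in the sources used here. Because no control carries the Cre allele, loss of Prmt1 and presence of the driver cannot be told apart. No source used here says whether a library is 1 animal or a pool, and the spread behind each p-value may therefore be technical. For 1 further comparison, the single libraries of CD11c low microglia of each genotype, from mice fed a 0.2% cuprizone (CPZ) diet for 5 weeks, were read beside the normal-diet values. The labels put the start of that diet at the same age, while the methods place it after the tamoxifen injections and thus later.

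PRMT1 is the main enzyme that places asymmetric dimethyl marks on arginine, on histone H4, on RNA-binding proteins and on signalling proteins. Marks on histone H4 go with active transcription. Microglia, the resident macrophages of the brain, hold a surveying state marked by P2ry12, Tmem119 and Cx3cr1 in healthy tissue, clear debris through complement, Fc receptors and lysosomes, and turn on other programs on injury.

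The libraries held 2484612, 2517999 and 3271726 reads in PRMT1FL and 3520015 and 3225077 in PRMT1Cx3cr1-KO. Markers of surveying microglia were abundant in all 5 libraries. Cx3cr1 alone stood at 2418 to 3581 scaled counts, and Tmem119 at 1414 to 1925. The astrocyte marker Aqp4 was near the floor, at 12.1 to 32.6. The closest pair of libraries was of mixed genotype: PRMT1FL replicate 3 and PRMT1Cx3cr1-KO replicate 2 differed by an SD of 0.289 on the log2 scale over the 11086 genes, with 119 genes over 2-fold apart. The 2 PRMT1Cx3cr1-KO libraries differed from each other by 0.343, with 229 such genes. PRMT1FL replicate 1 and PRMT1Cx3cr1-KO replicate 1 were the farthest pair, at 0.474 and 581 genes.

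Prmt1 itself, on chromosome 7, had 89.5, 97.8 and 102 scaled counts in PRMT1FL and 65.7 and 90.3 in PRMT1Cx3cr1-KO. Only replicate 1 of the latter lay below all PRMT1FL libraries, and the groups overlapped. Its log2 fold was -0.32 (SE 0.18, limma adjusted p = 0.64). Which exons recombination removes is not given in the sources used here, and reads from the rest of the transcript count toward the gene, so these values check the labels only in part. Of the other 7 measured PRMT genes, none passed an unadjusted p of 0.05. Prmt6, which places asymmetric marks on histone H3, lay apart between the groups at 141, 112 and 146 against 166 and 159.

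No gene passed the test on the normal diet. Called here means a limma adjusted p under 0.05, with Benjamini-Hochberg adjustment over all genes tested, and an absolute log2 fold over 1. On that rule 0 of 11086 genes (0%) were called, and the smallest adjusted p was 0.0869. At an unadjusted p under 0.05 there were 590 genes higher in PRMT1Cx3cr1-KO (5.32%) and 383 lower (3.45%). The edgeR quasi-likelihood test on the recovered reads also called 0 genes, with 589 higher and 421 lower at an unadjusted p under 0.05. DESeq2 called 7. In 1517 genes (13.7%) both PRMT1Cx3cr1-KO libraries lay above all PRMT1FL libraries, and in 1322 (11.9%) both lay below. Log2 folds were below 0 in 47% of genes, the median was 0.01, and 92.5% of genes lay within 0.5 of 0. Over 2-fold differences were more often upward, with 112 genes higher and 39 lower. Without PRMT1FL replicate 1 they numbered 55 higher and 54 lower, so the upward excess rested on that library. They numbered 160 and 32 without PRMT1FL replicate 2, and 182 and 31 without PRMT1FL replicate 3. Quantile normalization gave 69 higher and 55 lower, and TMM scaling gave 106 and 40.

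**Figure D1:**
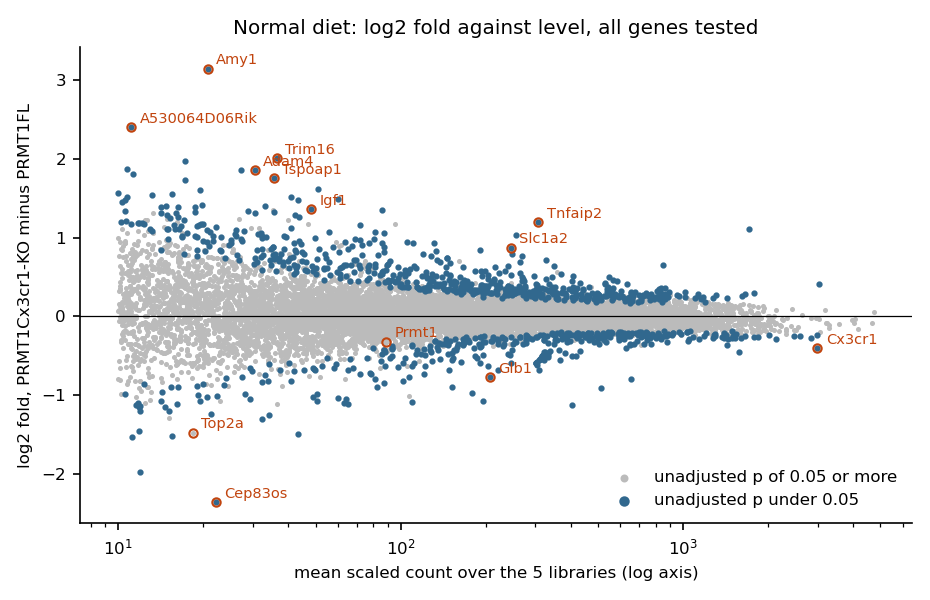
Log2 fold between genotypes on the normal diet against the mean scaled count (log axis) for the 11086 genes. Blue points have an unadjusted p under 0.05, and rings mark named genes. Amy1 lies highest at 3.14 and Cep83os lowest at -2.35, both at low mean counts, while the abundant Cx3cr1 lies at -0.41.

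Tnfaip2 had the smallest p of all genes. It is a gene induced by tumor necrosis factor and NF-kB, lies on chromosome 12 from 111442661 to 111455018 (GRCm38) and had 216, 177 and 205 scaled counts in PRMT1FL (199 ± 20.49, SD, n = 3). In PRMT1Cx3cr1-KO it had 579 and 361 (470 ± 154, SD, n = 2). Both PRMT1Cx3cr1-KO libraries lay above all PRMT1FL libraries, and replicate 1 lay well above replicate 2. The log2 fold was 1.20 (SE 0.17), with an adjusted p of 0.0869 in limma and of 3.53e-06 in DESeq2, which called it.

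The promoter sequences of 4 genes that were higher are shown as the regions from which the transcripts of leading genes start, 2 with and 2 without the motif searched. Each is the 250 bases before the RefSeq start (GRCm38.p6), 5′ to 3′ on the gene's strand. Capitals mark the core of the antioxidant response element, TGACNNNGC on either strand, the sequence that NRF2 dimers bind.
Tnfaip2, chr12:111442411-111442660, plus strand: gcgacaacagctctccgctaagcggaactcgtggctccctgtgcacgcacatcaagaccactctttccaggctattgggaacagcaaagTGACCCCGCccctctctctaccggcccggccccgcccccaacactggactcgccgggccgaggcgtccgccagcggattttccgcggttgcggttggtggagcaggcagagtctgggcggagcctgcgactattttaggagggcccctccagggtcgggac
Sesn2, chr4:132510457-132510706, minus strand: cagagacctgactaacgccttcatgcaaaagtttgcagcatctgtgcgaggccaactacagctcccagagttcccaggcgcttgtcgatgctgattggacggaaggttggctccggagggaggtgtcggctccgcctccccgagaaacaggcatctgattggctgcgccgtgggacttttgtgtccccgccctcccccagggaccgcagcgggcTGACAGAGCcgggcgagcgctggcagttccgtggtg
Amy1, chr3:113577751-113578000, minus strand: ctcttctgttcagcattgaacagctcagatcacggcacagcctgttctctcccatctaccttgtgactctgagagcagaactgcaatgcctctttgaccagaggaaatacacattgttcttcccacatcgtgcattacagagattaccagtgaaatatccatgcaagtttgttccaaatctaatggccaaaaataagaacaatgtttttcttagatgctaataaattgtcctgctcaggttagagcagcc
Capns2, chr8:92901145-92901394, plus strand: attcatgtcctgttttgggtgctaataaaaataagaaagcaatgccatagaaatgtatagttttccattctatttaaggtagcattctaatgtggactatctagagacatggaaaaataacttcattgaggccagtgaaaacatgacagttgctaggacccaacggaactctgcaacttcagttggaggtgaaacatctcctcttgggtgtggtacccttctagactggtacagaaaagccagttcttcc
The core was present once in the Tnfaip2 and once in the Sesn2 window. Over the 19 higher genes with a RefSeq promoter it was present in 2 (10.5%), beside 11.7% of the promoters of all genes tested. Apart from Sesn2, only the Tnfaip2 window held it, so the windows are too few to compare the shares.

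Tspoap1, which encodes a binding partner of the mitochondrial translocator protein TSPO, had 16.9, 16.7 and 19.3 scaled counts in PRMT1FL and 71.7 and 53.1 in PRMT1Cx3cr1-KO. The groups lay far apart, and the log2 fold was 1.75 (SE 0.28, limma adjusted p = 0.16). Slc1a2, the glutamate transporter GLT-1, had 161, 211 and 181 against 323 and 349, with 0.87 (SE 0.13, limma adjusted p = 0.0869). Slc5a3, a myo-inositol transporter, had 189, 193 and 249.7 against 339.6 and 374, with 0.77 (SE 0.13, limma adjusted p = 0.199). For Slc1a2 and Slc5a3 it was replicate 2 of PRMT1Cx3cr1-KO that lay higher. Slc5a3 overlaps Mrps6 on the same strand, and the counting could share reads between them.

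Amy1, a salivary-type amylase on chromosome 3, had the largest fold among the genes that DESeq2 called. It had 1.21, 5.96 and 4.59 scaled counts in PRMT1FL and 72.5 and 19.6 in PRMT1Cx3cr1-KO (log2 fold 3.14, SE 0.63, limma adjusted p = 0.271). Trim16, a ubiquitin ligase of the tripartite motif family, had 12.1, 13.1 and 17.4 against 108 and 32.6 (log2 fold 2.00, SE 0.43, limma adjusted p = 0.308). Adam4, a metalloprotease gene known from testis, had 8.46, 15.5 and 16.5 against 81.9 and 29.8 (log2 fold 1.85, SE 0.44, limma adjusted p = 0.371). In all these genes the groups did not overlap, and replicate 1 of PRMT1Cx3cr1-KO was over 2-fold above replicate 2.

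Igf1, a growth factor that microglia release during myelination and repair, had 27.8, 39.4 and 22.04 against 82.8 and 69.9 (log2 fold 1.36, SE 0.28, limma adjusted p = 0.271). Both PRMT1Cx3cr1-KO values lay at about the same level here. Trpv4, a calcium channel that senses osmotic and mechanical stress, had 73.8, 71.6 and 81.7 against 179 and 119 (log2 fold 0.94, SE 0.19, limma adjusted p = 0.271). Pde4b, a phosphodiesterase that degrades cAMP, had 311, 279 and 349 against 466 and 439 (log2 fold 0.54, SE 0.11, limma adjusted p = 0.271).

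Among lower genes, Cep83os, a noncoding transcript on chromosome 10, had 20.6, 35.8 and 43.2 scaled counts in PRMT1FL and 3.41 and 8.38 in PRMT1Cx3cr1-KO. It was the 1 lower gene that DESeq2 called (adjusted p = 0.0378), and the limma log2 fold was -2.35 (SE 0.45, limma adjusted p = 0.271). Both PRMT1Cx3cr1-KO libraries lay well below all PRMT1FL libraries.

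Glb1, the lysosomal beta-galactosidase, had 239, 248 and 252 against 120.3 and 174 (log2 fold -0.76, SE 0.15, limma adjusted p = 0.271). Glb1 overlaps Tmppe on the same strand, and Tmppe had 230, 324 and 422 reads against 681 and 418, and how the counting divided reads between them is not given in the sources used here. Arsb, the enzyme arylsulfatase B, had 1794, 1844 and 1632 against 1112 and 1492 (log2 fold -0.45, SE 0.12, limma adjusted p = 0.409). Gm2a, the activator protein of ganglioside GM2 breakdown, had 753, 719 and 664 against 554 and 564 (log2 fold -0.35, SE 0.09, limma adjusted p = 0.409). In these 3 the groups did not overlap.

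Tlr3, the endosomal receptor for double-stranded RNA, had 713, 709 and 667 against 516 and 541 (log2 fold -0.40, SE 0.08, limma adjusted p = 0.293). H2-Oa, which restrains peptide loading of MHC class II, had 116, 128 and 125 against 52.1 and 91.3 (log2 fold -0.82, SE 0.21, limma adjusted p = 0.409). Egr3, an immediate early transcription factor, had 216, 146 and 164 against 105 and 111 (log2 fold -0.68, SE 0.17, limma adjusted p = 0.409). All 3 lay apart between the groups, with the PRMT1Cx3cr1-KO libraries close to each other for Tlr3 and Egr3.

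**Figure D2:**
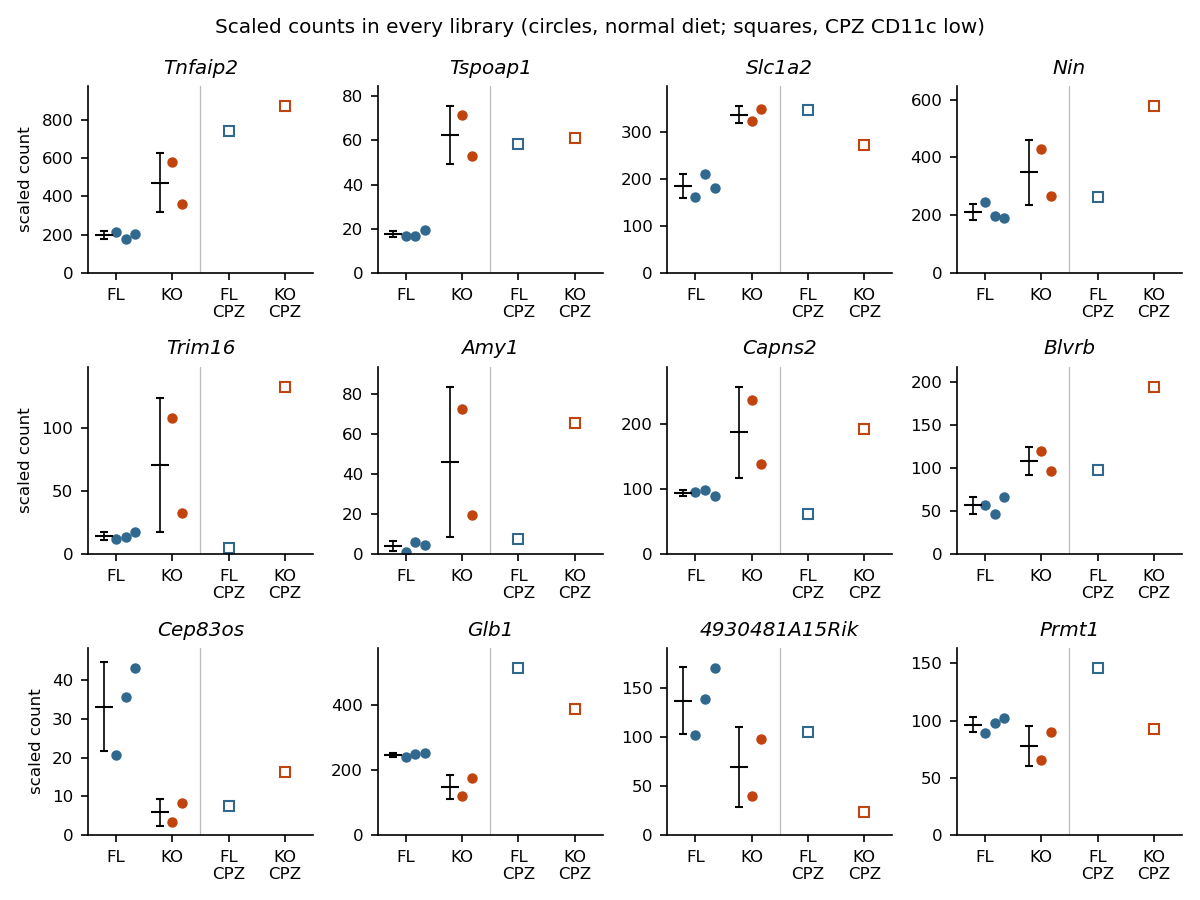
Scaled counts (y axes from 0) of 12 genes in each library. Filled circles are the normal-diet libraries of PRMT1FL (FL, blue, replicates 1 to 3 from left to right) and PRMT1Cx3cr1-KO (KO, red, replicates 1 and 2), black marks give their mean and SD, and open squares are the single CPZ CD11c low libraries. For Trim16, Amy1, Capns2 and Nin, PRMT1Cx3cr1-KO replicate 2 lies between PRMT1FL and replicate 1, and for Prmt1 the groups overlap.

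The 36 gene lists were described by counts and medians, with no test. Over all genes, 5.32% were higher and 3.45% lower at an unadjusted p under 0.05. The groups lay apart upward in 13.7% and downward in 11.9% of all genes. The 32 measured homeostatic microglia genes were nearly all lower: 30 had a log2 fold below 0, beside 47% of all genes. At an unadjusted p under 0.05, 13 were lower and 0 higher, the groups lay apart in 16, and the median log2 fold was -0.21. Cx3cr1, the fractalkine receptor, whose locus drives the Cre-ERT2, had 3551, 3581 and 2837 against 2418 and 2575 (log2 fold -0.41, SE 0.11, limma adjusted p = 0.409). Siglech, a sialic acid-binding receptor, had 1594, 1704 and 1410 against 1087 and 1362 (log2 fold -0.36, SE 0.11, limma adjusted p = 0.409).

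P2ry12, the purinergic receptor of surveying processes, had 2145, 2135 and 1669 against 1578 and 1723 (log2 fold -0.26, limma adjusted p = 0.537), and the groups overlapped. Of the PRMT1FL libraries only replicate 3 lay within the PRMT1Cx3cr1-KO range. The summed level of the list was 106%, 105% and 89.0% of its PRMT1FL mean in the 3 PRMT1FL libraries and 84.9% and 89.7% in PRMT1Cx3cr1-KO, so PRMT1FL replicate 3 lay level with PRMT1Cx3cr1-KO. Without that library 27 of the 32 were lower at an unadjusted p under 0.05, and without PRMT1Cx3cr1-KO replicate 1 only 1 was. The count was 5 without PRMT1FL replicate 1, 3 without PRMT1FL replicate 2 and 7 with TMM scaling, with the median below 0 each time. In bulk libraries, fewer cells of a type and less RNA per cell cannot be told apart.

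Complement and Fc receptor genes shared the pattern of the homeostatic list. Of 15 measured, 12 were below 0, 7 were lower and 1 was higher at an unadjusted p under 0.05, and the median was -0.20. The 3 chains of C1q, which opens the classical complement pathway, were close to each other, with C1qa at 916, 921 and 750 against 681 and 737. Fcer1g, the signalling chain shared by Fc receptors, had 297, 322 and 294 against 231 and 249.6 (log2 fold -0.34, SE 0.10, limma adjusted p = 0.409). The higher gene was C5ar1, the receptor for the complement fragment C5a, with 527, 549.96 and 597 against 824 and 665 (log2 fold 0.41, SE 0.10, limma adjusted p = 0.409). Without PRMT1Cx3cr1-KO replicate 1, 0 of the 15 passed an unadjusted p of 0.05, and without PRMT1FL replicate 2 the lower ones numbered 2.

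Phagolysosome genes had 30 of 35 members below 0, 9 lower and 0 higher at an unadjusted p under 0.05, and a median of -0.14. The 9 became 1 without PRMT1Cx3cr1-KO replicate 1, 3 and 2 without PRMT1FL replicates 1 and 2, 18 without PRMT1FL replicate 3 and 4 with TMM scaling. Their summed level also placed PRMT1FL replicate 3 (92.8% of the PRMT1FL mean) near PRMT1Cx3cr1-KO (89.1% and 91.8%). Over these 3 lists together, 79% of the 81 members had their lowest PRMT1FL value in replicate 3, beside 20.8% of all genes. The immediate early and dissociation list, which holds Egr3, had 22 of 30 members below 0. At an unadjusted p under 0.05, 6 were lower and 2, Nr4a3 and Dusp2, higher, and with TMM scaling 1 was lower. Its summed level was 112%, 97.6% and 90.4% of its PRMT1FL mean, against 85.2% and 94.0%. Among all 466 genes with a mean of at least 1000, 36 were lower and 16 higher at that p.

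Sterol synthesis went the other way. Of 22 measured members 20 were above 0, 4 were higher and 0 lower at an unadjusted p under 0.05, and the median was 0.21. The 4 became 2 without PRMT1FL replicate 2 or 3 or either PRMT1Cx3cr1-KO library, and 1 with DESeq2. Srebf2, which encodes SREBP2, the transcription factor of this pathway, had 269.6, 271 and 291 against 330.3 and 328 (log2 fold 0.25, SE 0.10, limma adjusted p = 0.495). Insig1, which holds SREBP2 in the endoplasmic reticulum, had 202, 163 and 157 against 204 and 249 (log2 fold 0.38, limma adjusted p = 0.479). For both genes the groups lay apart, and the summed level of the list was 96.0% to 104% of its mean in PRMT1FL against 117% and 118%.

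Targets of NRF2, the transcription factor of the antioxidant response, had 21 of 26 members above 0, 6 higher and 1 lower at an unadjusted p under 0.05, and a median of 0.15. Besides Trim16, these were Blvrb, Txnrd1, Srxn1, Slc7a11 and Osgin1. Blvrb, a biliverdin reductase, had 56.8, 46.5 and 66.1 against 119 and 96.9 (log2 fold 0.93, SE 0.21, limma adjusted p = 0.332). Srxn1, which repairs peroxiredoxins, had 30.2, 27.4 and 32.1 against 88.8 and 39.1, and Slc7a11, the cystine importer, had 26.6 to 31.0 in PRMT1FL against 46.9 and 49.4. Hmox1, the heme oxygenase, had 514, 579.8 and 600.5 against 503 and 658, with overlapping groups. Nfe2l2, the NRF2 gene, had a log2 fold of 0.10.

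The astrocyte list had the highest median of the longer lists, 0.82. The groups lay apart upward in 18 of 26 members, beside 13.7% of all genes. At an unadjusted p under 0.05, 15 were higher and 1 lower, beside 5.32% and 3.45% of all genes. Without PRMT1Cx3cr1-KO replicate 2 there were 9 higher. Slc1a2 is one of its members. Bcan, a brain proteoglycan core protein, had 13.3, 50.1 and 48.7 against 71.7 and 117. Aqp4, the water channel of astrocyte endfeet, had 12.1, 13.1 and 18.4 against 29.9 and 32.6. The 3 members below 0 were Glul, Slc1a3 and Cst3, with log2 folds of -0.19, -0.05 and -0.30. Which cells their RNA came from was not tested.

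In the oligodendrocyte list 16 of 20 were above 0, with 0 higher at an unadjusted p under 0.05, and the summed level was lowest in PRMT1FL replicate 1, at 83.8% of the PRMT1FL mean. Without that library 7 of 20 were above 0 and the median turned from 0.47 to -0.04, and without PRMT1FL replicate 2 or 3 there were 5 and 3 higher. Of 12 oligodendrocyte progenitor markers 3 were measured, and 2 of them, Ptprz1 and Cspg4, were higher at an unadjusted p under 0.05. The median log2 fold of the 3 was 0.98 without PRMT1Cx3cr1-KO replicate 1 and 0.94 without replicate 2. Cspg4 is also a gene the study lists for its phagocytic microglia cluster. It stood at 1302 scaled counts in the PRMT1FL and 1971 in the PRMT1Cx3cr1-KO library on CPZ, so it does not mark progenitors alone here. In the endothelial and mural list 17 of 18 were above 0, and in the neutrophil list 9 of 9 were below 0 (median -0.37). The neutrophil median was -0.09 without PRMT1Cx3cr1-KO replicate 1 and -0.11 without PRMT1FL replicate 1. The part of such RNA in Slc1a2 and the other astrocyte genes was not tested.

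**Figure D3:**
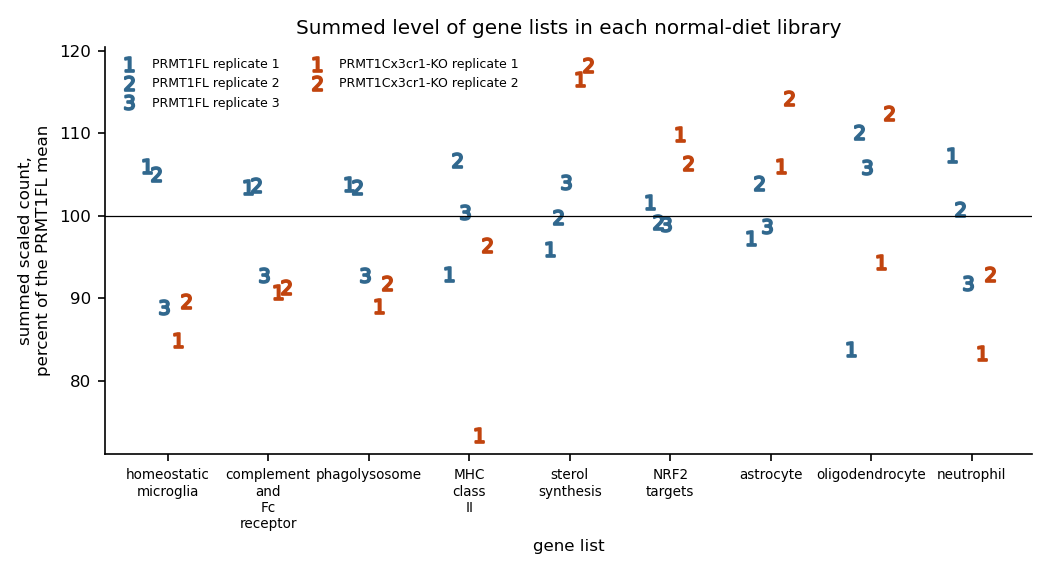
Summed scaled count of 9 gene lists in each normal-diet library, as a percent of the list's PRMT1FL mean (the axis does not start at 0). Numbers are replicates, PRMT1FL in blue and PRMT1Cx3cr1-KO in red. PRMT1FL replicate 3 lies near PRMT1Cx3cr1-KO for the homeostatic, complement and phagolysosome lists, while both PRMT1Cx3cr1-KO libraries lie above PRMT1FL for sterol synthesis and NRF2 targets.

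Disease-associated microglia genes had 7 lower and 2 higher of 31 at an unadjusted p under 0.05 (median -0.11). The 7 became 1 without PRMT1Cx3cr1-KO replicate 1, 3 and 2 without PRMT1FL replicates 1 and 2, 11 without PRMT1FL replicate 3 and 2 with DESeq2. The 2 higher were Igf1 and Clec7a, a receptor for fungal glucans, at 149.9, 128 and 108 against 198 and 167. The MHC class II list had a median of -0.22, but it rested on PRMT1Cx3cr1-KO replicate 1. H2-Eb1, a chain of MHC class II, had 242, 299 and 269.9 against 137 and 268 (log2 fold -0.49, SE 0.21, limma adjusted p = 0.537). Without replicate 1 the list median was -0.02 and without replicate 2 it was -0.39. For H2-Aa, the log2 fold was -0.31 with both libraries and 0.02 without replicate 1.

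In the interferon-stimulated list 1 of 46 was higher and 0 lower at an unadjusted p under 0.05 (median -0.03), in NF-kB feedback 3 of 24 were higher and 0 lower, Tnfaip2 among them, and in the p53 list 4 of 22 were higher and 1 lower. Leaving out 1 library gave 0 to 3 higher interferon-stimulated, 1 to 5 higher NF-kB and 2 to 4 higher p53 genes, the fewest without PRMT1FL replicate 2 or PRMT1Cx3cr1-KO replicate 1, without PRMT1FL replicate 2 or PRMT1Cx3cr1-KO replicate 2, and without PRMT1Cx3cr1-KO replicate 2, in that order. Sesn2, a stress-induced inhibitor of mTORC1 and one of those 4, had 119.7, 104 and 135 against 177 and 192 (log2 fold 0.63, SE 0.15, limma adjusted p = 0.36). Gdf15, a stress-induced cytokine, had 197, 113 and 129 against 225 and 289.7 (log2 fold 0.84, SE 0.20, limma adjusted p = 0.383). The 64 ribosomal protein genes had 0 members at an unadjusted p under 0.05, and the 67 oxidative phosphorylation genes had 2 lower and 0 higher.

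**Figure D4:**
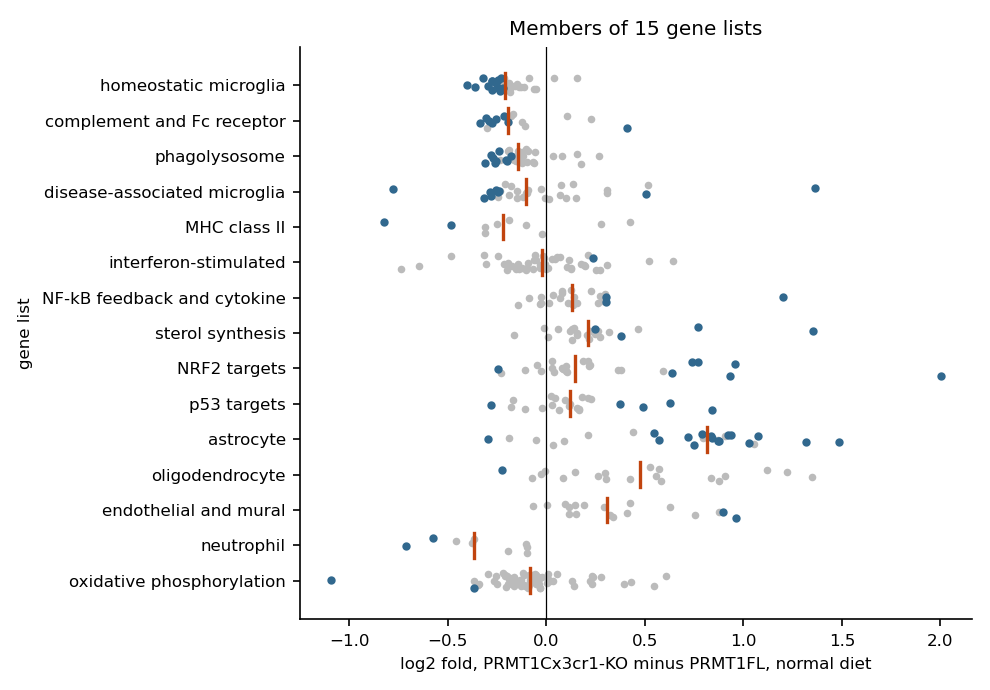
Log2 fold of each measured member of 15 gene lists on the normal diet. Blue points have an unadjusted p under 0.05, grey points do not, and the red bar is the list's median. The medians run from -0.37 for the neutrophil list to 0.82 for the astrocyte list.

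By chromosome, the share of genes at an unadjusted p under 0.05 was 8.78% over all genes and stood out on chromosome 18, at 15.75% of 292 genes, 29 of them lower. Of these 29, 24 were entries of the protocadherin gamma cluster, adhesion genes of neurons whose transcripts each join 1 variable exon to the same constant exons. All 25 measured entries had log2 folds from -0.59 to -0.35, and their read counts were alike in most entries, which share constant exons, so they are not counted as separate signals. Pcdhgb8, with 78, 95, 129, 84 and 107 reads, was an exception, and it did not pass an unadjusted p of 0.05. Without the 24, there were 359 lower genes at an unadjusted p under 0.05 in place of 383. Within 5 Mb of Cx3cr1 9.68% of 62 genes passed an unadjusted p of 0.05, 2 higher and 4 lower. Within 5 Mb of Prmt1 10.75% of 93 did, 3 higher and 7 lower, beside 5.32% and 3.45% of all genes. Nav2, described below, is 1 of these 7.

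The 2 PRMT1Cx3cr1-KO libraries did not carry the same differences. With replicate 1 alone, 47 genes were called, 14 higher and 33 lower, the lone library being assumed to vary like PRMT1FL. With replicate 2 alone, 0 were called and 275 genes had an unadjusted p under 0.05, 215 higher and 60 lower. Of the 47 genes, replicate 2 lay between the PRMT1FL mean and replicate 1 in 39, and at the median it lay 23.3% of the way on the log2 scale. Both are read against the same PRMT1FL libraries, so this is a description.

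Nav2, a guidance gene of neurons, had the smallest p with replicate 1 alone. It had 805, 738 and 717 scaled counts in PRMT1FL, 249 in PRMT1Cx3cr1-KO replicate 1 and 753 in replicate 2. Slc5a10, a mannose transporter gene, had 37.5, 39.4 and 45.0, then 5.97 and 42.8. Top2a, the topoisomerase of dividing cells, had 22.97, 22.7 and 20.2, then 1.71 and 24.2, and Mki67, another marker of division, 49.6, 25.1 and 38.6, then 13.7 and 56.8. In these genes only replicate 1 lay below all PRMT1FL libraries. Replicate 2 lay within the PRMT1FL range for Nav2 and Slc5a10 and above it for Top2a and Mki67.

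The CPZ libraries share no library with the normal-diet comparison and were fitted with it in 1 model of 7 libraries, where their spread is taken from the normal-diet replicates. With 1 CPZ library a genotype, the calls compare those libraries, and no CPZ replicate stands behind them. Over 10279 genes, 122 were called higher (1.19%) and 139 lower (1.35%) in PRMT1Cx3cr1-KO on CPZ. Leaving out PRMT1FL replicate 1 gave 190 and 287, and leaving out PRMT1FL replicate 2 gave 59 and 85. Of the 47 genes called with replicate 1 alone, 43 could be read there. All 13 higher ones were above 0 on CPZ, and 28 of 30 lower ones were below 0. The spread of the PRMT1FL libraries entered both the choice of these genes and the CPZ test. A call on CPZ is thus not independent of that choice. Over all genes, 56.4% of those above 0 and 50.0% of those below 0 on the normal diet kept their sign on CPZ. Of genes at an unadjusted p under 0.05 in the main normal-diet fit, 61.0% of 528 higher and 58.1% of 353 lower ones did. With an absolute log2 fold over 0.5 as well, 50.0% of 224 higher and 84.6% of 104 lower ones did. Differences between libraries of the same genotype hold no genotype contrast, and were read where the scaled count averaged 30 or more. Between PRMT1FL libraries, 37.5% of 32 genes over 2-fold higher in replicate 1 than in replicate 2 kept their sign on CPZ. That was the lowest share there, and the highest was 80.4% of 92 genes over 2-fold lower in replicate 1 than in replicate 3. Between the PRMT1Cx3cr1-KO libraries, 81.8% of 22 genes over 2-fold higher in replicate 1 than in replicate 2 kept their sign. Of 62 genes over 2-fold lower in PRMT1Cx3cr1-KO replicate 1 than in replicate 2, 88.7% did.

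Trim16 had 4.62 scaled counts in the PRMT1FL and 132 in the PRMT1Cx3cr1-KO library on CPZ (log2 fold 4.65, SE 0.69, limma adjusted p = 0.0128). Capns2, a calpain small subunit, had 95.5, 97.8 and 89.1 against 236 and 138 on the normal diet and 61.9 against 192 on CPZ (CPZ log2 fold 1.73, SE 0.32, limma adjusted p = 0.0236). It lies within the span of Lpcat2 on the same strand. Osgin1, an NRF2 target, had 109, 103 and 85.4 against 202 and 141, and 107 against 301 on CPZ (CPZ log2 fold 1.59, limma adjusted p = 0.021). Nin, the centrosomal protein ninein, had 244, 197 and 192 against 428 and 268, and 262 against 578 (CPZ log2 fold 1.25, SE 0.29, limma adjusted p = 0.0436). These 4 were higher in PRMT1Cx3cr1-KO in both diets, and on the normal diet most so in replicate 1.

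4930481A15Rik, a noncoding transcript, had 102, 138 and 169.8 against 40.1 and 97.8 on the normal diet and 104 against 22.9 on CPZ (CPZ log2 fold -2.02, SE 0.50, limma adjusted p = 0.049). Its span overlaps Drap1 on the opposite strand. Amy1 was not called on CPZ but had 7.38 against 65.5 (CPZ log2 fold 3.08, limma adjusted p = 0.0968), and A530064D06Rik, at 2.42, 3.58 and 4.59 against 25.6 and 19.6 on the normal diet, had 14.8 against 156 (CPZ log2 fold 3.42, SE 0.61, limma adjusted p = 0.021).

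**Figure D5:**
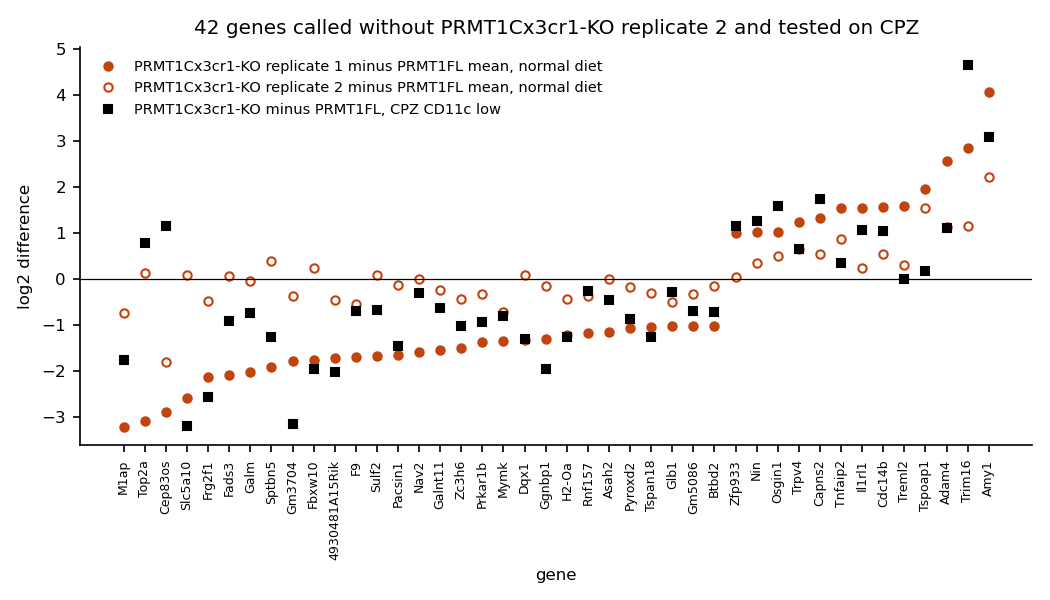
Log2 differences of 42 of the 43 genes called with PRMT1Cx3cr1-KO replicate 1 alone that were also tested on CPZ, ordered by replicate 1. Filled circles are replicate 1 and open circles replicate 2 minus the PRMT1FL mean on the normal diet, and black squares are the CPZ difference between genotypes. The filled circles chose the genes and are no finding, and the squares lie on the same side in 40 of the 42, all but Top2a and Cep83os.

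Among other leading genes, Tnfaip2 had 741 against 872 on CPZ (CPZ log2 fold 0.35, limma adjusted p = 0.499) and Tspoap1 58.1 against 61.1 (CPZ log2 fold 0.18, limma adjusted p = 0.831). Cep83os had 7.38 against 16.4, in the other direction. Slc5a3 had 106 against 151 (CPZ log2 fold 0.61, limma adjusted p = 0.0862) and Blvrb 97.9 against 194 (CPZ log2 fold 1.09, limma adjusted p = 0.0554), both in the direction of the normal diet but not called. The astrocyte list, at a median of 0.82 on the normal diet, had a median of -1.33 on CPZ, with 5 members called lower. The homeostatic list, at -0.21 on the normal diet, had a median of 0.28, with 0 called. On CPZ the PRMT1FL library also held more RNA of other cells: 7 of 8 neutrophil markers in that fit were called lower in PRMT1Cx3cr1-KO, with S100a8 at 118 against 1.09, and 7 of 16 endothelial and mural markers. Their part in the CPZ differences was not tested.

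The NRF2 targets held their direction on CPZ, with a list median of 0.37 there and 4 called higher. The MHC class II list had a median of -1.11 on CPZ with 4 called lower, H2-Aa at 345 against 86.2 among them. For the genotype by diet interaction, 83 genes (0.807%) were called at an adjusted p under 0.05 and a difference of log2 folds over 1. That count was 202 without PRMT1FL replicate 1, 27 without PRMT1FL replicate 2, 142 without PRMT1FL replicate 3 and 24 without PRMT1Cx3cr1-KO replicate 2.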

How the data were processed

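Microglia were sorted from mouse brain and total RNA was sequenced. The authors aligned reads and counted them per gene. The submitters' processing notes name Bowtie2, FastQC 0.11.9, SAMtools 0.1.19, HOMER and DESeq2, and name the human build hg19 beside GRCm38. Gene coordinates in the tables overlapped GRCm38 genes of the same symbol in 98.65% of 25037 cases. The deposited signal values are counts per gene divided by a size factor, so that every library of a table has the same total. Dividing by the step of each library gave whole reads for 100% of values (tolerance 0.1). Columns of the authors' own comparisons (log2 fold, p-value, adjusted p-value) were not used, nor were tables of the other comparisons, and 0 per-sample columns were left without a sample.

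Genes whose scaled counts averaged 10 or more on the normal diet were tested with limma 3.58.1 (R 4.3.3, eBayes with trend) on log2(value + 1). A fold is on that scale and understates low genes. Recovered reads were tested with edgeR 4.0.16 and DESeq2 1.42.0 as alternatives. The CPZ contrast and the genotype by diet interaction came from 1 limma fit of 7 libraries with median-of-ratios scaling, using genes with the same transcript in both tables. Levels of the 2 tables are on different totals. Scripts were tested on simulated data.

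Groups came from the sample labels. Genes named were Prmt1 and its family, Cx3cr1 and genes the study names; the 12 smallest p and 8 largest folds in each direction with groups apart; genes called by DESeq2, edgeR or with 1 library left out; leading members of each list; and genes that differed most between libraries of 1 genotype. Genes outside that rule (Aqp4, C1qa, Hmox1, Osgin1, S100a8, Slc1a3, Slc7a11, Srxn1, Txnrd1, the protocadherin gamma entries and overlapping neighbours) were named after their values were seen. Some genes that the rule names are not reported here. The members and lists were chosen with earlier results of these data known. Alternatives were other pseudocounts, filters, scalings, variance models and tools, each library left out, and the replicate number as a block. Library preparation used dUTP, and whether counting used strand is not given in the sources used here.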

Additional observations from a re-analysis of the deposited data

Results flagged for a closer look

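For 9 of the genes named here the genotype log2 fold on CPZ differed from that on the normal diet in the interaction test (limma adjusted p under 0.05), and 5 of them are markers of neutrophils, endothelium or monocytes. The difference of the log2 folds (CPZ minus normal diet) was -4.82 for Ngp, a neutrophil granule protein, -6.45 for Ltf, another, and -4.22 for Chil3, a chitinase-like protein of monocytes and neutrophils. It was -3.72 for Slco1c1 and -2.77 for Slco1a4, transporters of brain endothelium.

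Of the other 4, Nr4a3, an immediate early nuclear receptor, had 43.5, 31.0 and 39.5 in PRMT1FL and 52.9 and 89.4 in PRMT1Cx3cr1-KO on the normal diet, and 560.3 against 42.6 on CPZ, a difference of -4.41. Dusp2, a phosphatase that turns off MAP kinases, had 690 against 215 on CPZ and a difference of -1.93. Pde4b had 759 against 420.01 on CPZ and a difference of -1.26, and H2-Q4, an MHC class I gene, had a difference of -1.10. Each CPZ group is 1 library, whose spread was taken from the normal-diet replicates. Groups of 3 and 2 libraries are too small for a test of single outlying samples.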

How the results depend on the processing

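The count of called genes was 0 in the main fit and under the other pseudocounts, filters, scalings, variance models and edgeR, but 7 with DESeq2. Leaving out 1 library gave 0 to 47 (47 without PRMT1Cx3cr1-KO replicate 2, 2 without PRMT1FL replicate 1, 3 without PRMT1FL replicate 2). With the replicate number as a replicate block 3 genes were called, Tnfaip2, Dhx40 and Neat1. Same-numbered libraries did not deviate together (r = 0.069 and -0.003). With only 2 PRMT1Cx3cr1-KO libraries these values cannot decide whether the numbers pair the samples, and the labels do not say. At an unadjusted p under 0.05, DESeq2 gave 313 higher and 173 lower genes in place of 590 and 383, and leaving out 1 library gave 215 to 729 higher and 60 to 550 lower, the fewest without PRMT1Cx3cr1-KO replicate 1. Quantile normalization gave 591 higher and 565 lower. Non-overlapping genes, more often apart by construction with 1 library fewer, numbered 1940 to 3240 higher and 1811 to 3031 lower. Interaction calls were 83, 185 with edgeR, and 24 to 202 with 1 library left out. On CPZ, 20 of the named genes were called, and 15 to 33 with 1 library left out. Of 3773 normal-diet values of named genes under an alternative, 8 changed sign (counted where the log2 fold exceeded its SE), all without PRMT1Cx3cr1-KO replicate 1. The values without replicate 1 and without replicate 2, the ends of the range over libraries left out, were -0.058 and 0.977 for Rpl5, 0.011 and -0.248 for Apoe, 0.391 and -1.911 for Sptbn5, 0.236 and -1.767 for Fbxw10, 0.064 and -2.077 for Fads3, 0.08 and -2.574 for Slc5a10, 0.025 and -0.645 for H2-Aa, and 0.138 and -3.08 for Top2a. The causes were not tested. With 1 library alone in a group, it was assumed to vary like the others. At 2484612 to 3520015 reads a library, genes with a mean of 10 to 30 had a median SE of 0.39 on the log2 scale, beside 0.15 over all genes.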
